A study of Mus musculus with 194 samples.

Results

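The 10 genes described here encode the cyclins, kinases and kinase inhibitors that act in the G1 phase of the cell cycle, and their rows were read by gene symbol from a single-cell expression table of 23420 gene names. They are the D-type cyclins Ccnd1, Ccnd2 and Ccnd3, the kinases Cdk4 and Cdk6, the CIP/KIP inhibitor Cdkn1b (p27) and the INK4 inhibitors Cdkn2a (p16 and, from another reading frame, p19ARF), Cdkn2b (p15), Cdkn2c (p18) and Cdkn2d (p19INK4d). All 10 symbols were in the table. The study grew single mouse cells and their offspring in a microfluidic trap array, released the cells, nearly all with a recorded time since their last division, and made 1 Smart-Seq2 library per cell, so that sisters and cousins are known. L1210 is an established lymphocytic leukemia line of the DBA mouse (DBA subline 212), cultured in medium with serum and given no stimulus. The CD8+ T-cells were purified from spleens of C57BL/6J mice of both sexes and several ages, activated for 30 h with plate-bound antibody against CD3 at 5 μg/mL and soluble antibody against CD28 at 2 μg/mL, and then grown in the device with IL2 at 100 U/mL. Strain, activation, medium and cell type thus differ together, and no cell is tied to a mouse or a culture, so that a difference between the cell types cannot be assigned to any of these and each type counts as 1 sample.

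After doublets and libraries with fewer than 1000 genes above 0 TPM were left out, 97 CD8+ T-cells in 34 lineages and 81 L1210 cells in 26 lineages were retained. TPM is RSEM's measure of transcript abundance, scaled by transcript length and to 1 common total per library. The number of genes above 0 TPM ran from 2639 to 10905 per CD8+ T-cell, with a median of 6862, and from 1610 to 10454 per L1210 cell, with a median of 8402. The cell types carried their own markers. All 7 T-cell genes on a marker list were above 0 TPM in more than 50% of the CD8+ T-cells and all 7 B-lineage genes in more than 50% of the L1210 cells. Of the T-cell genes in L1210 cells, Cd3e and Cd3g were listed at 0 in all 81, Cd3d, Cd8a, Lck and Cd8b1 were above 0 TPM in 8 to 23 cells, and Thy1 was in 46, up to 91.9 TPM. Of the B-lineage genes in CD8+ T-cells, 5 were listed at 0 in all 97, and Cd79b was above 0 TPM in 47, up to 282.6 TPM. Of 5 myeloid genes, Cd14 passed that share in L1210 cells, at 41 of 81. L1210_15 stood apart, with 1610 genes above 0 TPM and Ccnd3, Cdk4 and Cdk6 all listed at 0, and L1210_8 had 2718 genes and 79.3% of its TPM in the ribosomal precursor Rn45s. Results that rest on these libraries are given with and without them, except for the fits on hours. Those were not run without L1210_8 alone. The scaling by length means that levels of different genes can be compared within a cell, but read numbers are not kept.

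D-type cyclins are made in response to growth factors and antigen, bind CDK4 or CDK6, and the complexes phosphorylate the retinoblastoma protein, which releases E2F transcription factors and starts the S-phase program, including cyclins E and A. The INK4 proteins bind CDK4 and CDK6 and keep D cyclins off them, whereas p27 binds cyclin-CDK complexes and restrains cyclin E with CDK2 in particular. Cyclin D3 is known for its part in the proliferation of lymphocytes and their precursors, and the Cdkn2a and Cdkn2b genes are known as tumor suppressors that are often lost together with their neighbor MTAP in human leukemia.

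On the GRCm38 build (GENCODE M21), Ccnd1 lies at chr7:144929931-144939925, Ccnd2 at chr6:127125162-127152193, Ccnd3 at chr17:47505051-47599691, Cdk4 at chr10:127063534-127067920, Cdk6 at chr5:3341485-3531008, Cdkn1b at chr6:134920401-134925513, Cdkn2c at chr4:109660876-109667189 and Cdkn2d at chr9:21288410-21291407. Cdkn2a, at chr4:89274471-89294653 on the minus strand, and Cdkn2b, at chr4:89306299-89311039 on the minus strand, are direct neighbors, and Mtap, the gene of a methionine salvage enzyme, lies next to Cdkn2a, on the side away from Cdkn2b, at chr4:89137122-89181081 on the plus strand. The promoters of these 3 neighbors are printed because the sharpest differences between the cell types fell there. Each is the 300-base RefSeq window (GRCm38.p6) on the strand of the gene, from 250 bases before to 50 bases after the start, with every GC box (GGGCGG on either strand) in capitals. The upstream start of Cdkn2a is that of p19ARF and the downstream start that of p16, and the table holds 1 value for both.
Mtap, chr4:89137120-89137419: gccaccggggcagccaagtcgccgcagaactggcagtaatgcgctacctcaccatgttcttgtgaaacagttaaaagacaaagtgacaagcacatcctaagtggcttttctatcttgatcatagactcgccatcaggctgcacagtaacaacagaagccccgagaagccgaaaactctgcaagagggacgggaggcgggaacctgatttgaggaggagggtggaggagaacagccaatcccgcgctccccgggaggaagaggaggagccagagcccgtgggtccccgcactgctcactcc
Cdkn2a, upstream start, chr4:89294570-89294869: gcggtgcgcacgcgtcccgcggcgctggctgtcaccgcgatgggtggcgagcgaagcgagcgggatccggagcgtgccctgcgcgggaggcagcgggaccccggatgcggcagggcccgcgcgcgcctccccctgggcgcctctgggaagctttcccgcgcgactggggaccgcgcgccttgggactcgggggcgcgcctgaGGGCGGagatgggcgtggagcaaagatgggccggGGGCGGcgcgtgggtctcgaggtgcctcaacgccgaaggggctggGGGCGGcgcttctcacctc
Cdkn2a, downstream start, chr4:89282143-89282442: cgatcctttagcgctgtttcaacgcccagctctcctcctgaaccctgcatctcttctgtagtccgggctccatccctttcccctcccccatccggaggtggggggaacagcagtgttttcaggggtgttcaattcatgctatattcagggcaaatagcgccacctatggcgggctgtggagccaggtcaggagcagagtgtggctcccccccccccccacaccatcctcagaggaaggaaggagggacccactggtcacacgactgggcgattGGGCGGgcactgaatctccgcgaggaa
Cdkn2b, chr4:89310983-89311282: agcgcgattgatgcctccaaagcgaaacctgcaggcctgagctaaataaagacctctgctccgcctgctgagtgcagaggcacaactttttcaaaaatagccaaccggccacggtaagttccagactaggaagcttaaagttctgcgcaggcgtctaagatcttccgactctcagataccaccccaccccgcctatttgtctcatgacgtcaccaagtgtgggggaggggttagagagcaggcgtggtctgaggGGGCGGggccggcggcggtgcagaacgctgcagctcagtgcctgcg
The upstream Cdkn2a promoter held 45 CG dinucleotides, more than 98.1% of the 32851 promoter windows in the table, against 12 in the downstream Cdkn2a promoter, 18 in that of Cdkn2b and 14 in that of Mtap, where the median window held 7. It held 3 GC boxes, the downstream start and Cdkn2b held 1 each, and Mtap held 0, with a GC box in 35.7% of all windows. An E2F-type motif, searched as TTTCCCGC, TTTGGCGC, TTTGCCGC or TTTCGCGC on both strands and present in 2.26% of all windows, was found in the upstream Cdkn2a window and in no other window of a member. No E2F form contains the letters of the GC box. Windows were found for 8 of the 10 members, the exceptions being Ccnd1 and Ccnd2. GC boxes numbered 5 in the window of Cdkn2d, 3 in that of Cdk4 and 0 in that of Cdk6. These matches describe letters in the windows and are not binding sites.

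Ccnd3 was the most abundant D cyclin in both cell types, by a wide margin. Its level ran from 0 to 1772 TPM (median 741) over the CD8+ T-cells and from 0 to 766 TPM (median 408) over the L1210 cells. The ranges overlapped, and each type had 1 cell at 0, CD8_86 with 3392 genes and L1210_15. Ccnd2 ranged from 0 to 249.6 TPM in CD8+ T-cells and from 8.75 to 144 TPM in L1210 cells, with medians of 62.5 and 61.9 TPM. It was above 0 in 96 of 97 and 81 of 81 cells, so that nearly every cell of both types held transcripts of both cyclins. Ccnd3 exceeded Ccnd2 in 95 of 97 CD8+ T-cells, against 80 of 81 L1210 cells. As a share of the summed TPM of the 3 D cyclins, Ccnd3 took 87.4% ± 9.70 in CD8+ T-cells (SD, n = 34 lineages) and 85.01% ± 5.82 in L1210 cells (SD, n = 26 lineages), and Ccnd2 took 12.6% ± 9.71 and 14.9% ± 5.85.

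Ccnd1, the D cyclin of most epithelial and mesenchymal cells, was detected in few cells of either lymphoid type. Transcripts were detected in 11 of 97 CD8+ T-cells (11.3%, exact 95% interval 5.80 to 19.4%) and in 17 of 81 L1210 cells (20.99%, 12.7 to 31.5%), with highest values of 7.26 and 7.74 TPM, and only 2 and 3 cells exceeded 5 TPM. All intervals on shares of cells cover counting error alone. For comparison, the 7 T-cell genes in the L1210 cells had maxima from 0 TPM (Cd3e and Cd3g) through 9.22 (Cd3d), 9.74 (Cd8a), 31.8 (Cd8b1) and 45.7 TPM (Lck) to 91.9 TPM (Thy1).

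Of the kinases, Cdk4 exceeded Cdk6 in 96 of 97 CD8+ T-cells, against 80 of 81 L1210 cells. Cdk4 ranged from 21.1 to 1211 TPM (median 512) in the former and from 0 to 696 TPM (median 418) in the latter. Its only 0 was L1210_15. Cdk6 ranged from 0 to 531 TPM (median 107) in CD8+ T-cells and from 0 to 306 TPM (median 112) in L1210 cells. It was listed at 0 in 6 CD8+ T-cells, with 2952 to 6252 genes above 0 TPM, and in 4 L1210 cells, with 1610 to 6799. Cdk4 took 82.1% ± 9.67 of the TPM of both kinases in CD8+ T-cells (SD, n = 34 lineages) and 78.5% ± 7.59 in L1210 cells (SD, n = 26 lineages).

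**Figure D1:**
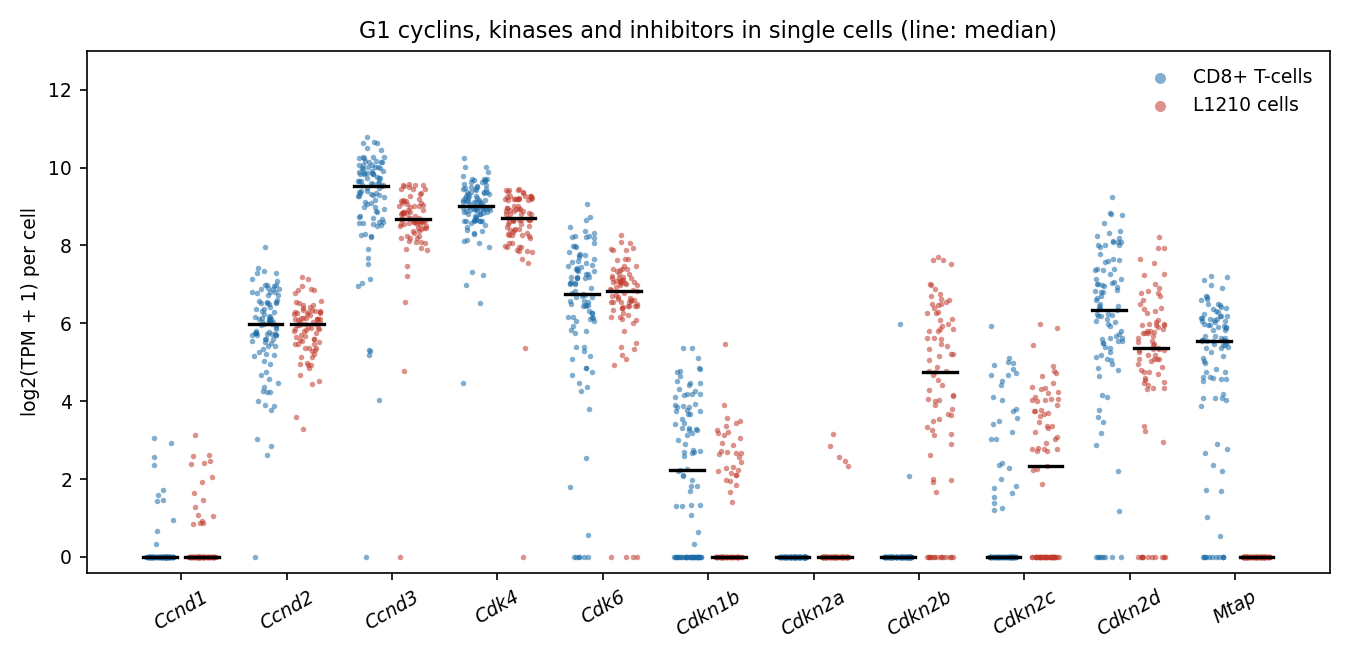
Each point is 1 cell and the vertical axis is log2(TPM + 1), for the 97 CD8+ T-cells (blue) and the 81 L1210 cells (red), with the median as a black line, for the 10 genes and the neighbor Mtap. Cdkn2b is at 0 in all but 2 CD8+ T-cells and spread from 0 to 207 TPM in L1210 cells, and Mtap is at 0 in every L1210 cell.

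Mean levels were compared as the mean over lineages of the lineage means, and a gene was counted as different at a ratio of 2-fold or more, with no test because each type is 1 sample. Of 11372 genes that passed the filter (ln(TPM + 1) above 1 in more than 10% of the cells of either type), 29% were 2-fold or more higher in L1210 cells and 13.9% were 2-fold or more higher in CD8+ T-cells, and the median gene above 0 in both types was 0.39 higher in L1210 cells on the log2 scale. With lineage means taken on ln(TPM + 1) and transformed back, the counts were 5313 and 1417 in place of 3302 and 1585, the share of higher calls in L1210 cells rose from 67.6 to 78.9%, and the median was 0.89. Of the 10 members, 9 passed the filter, 1 was counted as higher in L1210 cells (Cdkn2b) and 1 as higher in CD8+ T-cells (Cdkn1b). Their median log2 ratio of L1210 over CD8+ T-cells was -0.15, against 0.39 over all genes.

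The cyclins and kinases differed less than 2-fold between the types. Ccnd3 averaged 716 ± 305 TPM in CD8+ T-cells (SD, n = 34 lineages) and 417 ± 118 TPM in L1210 cells (SD, n = 26 lineages), a log2 ratio of -0.78, or -1.17 relative to the median gene. For Cdk4 the means were 529.8 ± 172 and 436 ± 117 TPM, a log2 ratio of -0.28. Ccnd2 averaged 71.6 ± 29.4 and 64.4 ± 20.7 TPM, a log2 ratio of -0.15 (0.02 from back-transformed means), and Cdk6 averaged 120.4 ± 75.8 and 118.8 ± 49.6 TPM, a log2 ratio of -0.02 (0.47 from back-transformed means). Each of these differences was smaller than the SD between lineages of CD8+ T-cells. Ordered by lineage mean, the levels in CD8+ T-cells ran Ccnd3, Cdk4, Cdk6, Cdkn2d, Ccnd2, Cdkn1b, Cdkn2c, Cdkn2b, Ccnd1 and Cdkn2a, and neighbors in this order were farther apart than the larger of their SDs at 2 steps only, from Cdk4 to Cdk6 and from Ccnd2 to Cdkn1b. In L1210 cells they ran Cdk4, Ccnd3, Cdk6, Ccnd2, Cdkn2d, Cdkn2b, Cdkn2c, Cdkn1b, Ccnd1 and Cdkn2a, with such steps from Ccnd3 to Cdk6 and from Cdk6 to Ccnd2.

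Cdkn2b gave the widest separation. Transcripts were detected in 2 of 97 CD8+ T-cells (2.06%, exact 95% interval 0.251 to 7.25%) and in 66 of 81 L1210 cells (81.5%, 71.3 to 89.2%). The L1210 cells ranged from 0 to 207 TPM with a median of 26.2, and the 2 CD8+ T-cells were CD8_54, with 62.7 TPM, and CD8_92, with 3.2 TPM, both within the L1210 range. The mean over lineages was 0.493 ± 2.69 TPM in CD8+ T-cells (SD, n = 34) and 44.8 ± 43.4 TPM in L1210 cells (SD, n = 26), 90.9-fold higher in L1210 cells. The lower mean rests on CD8_54, without which the ratio was 1427-fold. In all the table, 75 of 23418 gene names (0.32%) were above 0 TPM in 2 or fewer CD8+ T-cells and in 66 or more L1210 cells.

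Mtap showed the opposite pattern, next to Cdkn2a. Transcripts were detected in 86 of 97 CD8+ T-cells, from 0 to 147 TPM with a median of 45.6, and the gene was listed at 0 in all 81 L1210 cells. A count of 0 allows a share of cells above 0 TPM of up to 3.7% (3 of 81, where the exact 95% interval reaches 4.45%), which does not limit the share of cells that express the gene below detection. The pattern of Mtap or stronger, at 0 in every L1210 cell and above 0 in 86 or more CD8+ T-cells, was met by 14 of 23418 gene names (0.0598%). Of the L1210 cells, 66 had Cdkn2b but not Mtap above 0 TPM and 15 had neither, whereas 84 CD8+ T-cells had Mtap but not Cdkn2b above 0 TPM, 2 had both and 11 had neither. Whether Mtap is silent in L1210 cells, below detection or missing from their genome cannot be told apart with transcript levels.

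Cdkn2a itself was rarely above 0 TPM in either type. It was listed at 0 in all 97 CD8+ T-cells, which by the same rule allows a share above 0 TPM of up to 3.09% (exact 95% interval to 3.73%), and was detected in 5 of 81 L1210 cells (6.17%, exact 95% interval 2.03 to 13.8%), at 4.01, 4.56, 4.96, 6.27 and 7.91 TPM. These 5 cells came from 5 different lineages, had 7519 to 10454 genes above 0 TPM, and all held Cdkn2b as well, at 7.74 to 183 TPM. Since 81.5% of all L1210 cells held Cdkn2b, this does not show that the 2 genes go together. Reads were 30 bases long at each end, and no identical 30-base window was shared between GENCODE M21 transcripts of Cdkn2a and Cdkn2b, or of any other pair of members. Reads placed with mismatches are not covered by this comparison. The longest identical run of Cdkn2a and Cdkn2b had 23 bases, shown because it is the place where reads of these paralogs could be confused, cgggaaggcttcctggacacgct.

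Few other genes around the locus were detected in most cells. Of 57 genes within 1 Mb in the reference, 42 were in the table. Those above 0 TPM in more than 50% of the cells were 3 in CD8+ T-cells (Focad, Klhl9 and Mtap) and 3 in L1210 cells (Focad, Klhl9 and Cdkn2b). Klhl9, an adaptor of a ubiquitin ligase, was detected in 68 of 97 CD8+ T-cells, against 74 of 81 L1210 cells, with medians of 7.12 and 25.97 TPM, and Focad in 54 and 59 cells. On the side of Cdkn2b, Dmrta1 was above 0 TPM in 2 CD8+ T-cells and 1 L1210 cell. Elavl2, beyond the 1 Mb window on that side, was listed at 0 in all cells of both types.

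**Figure D2:**
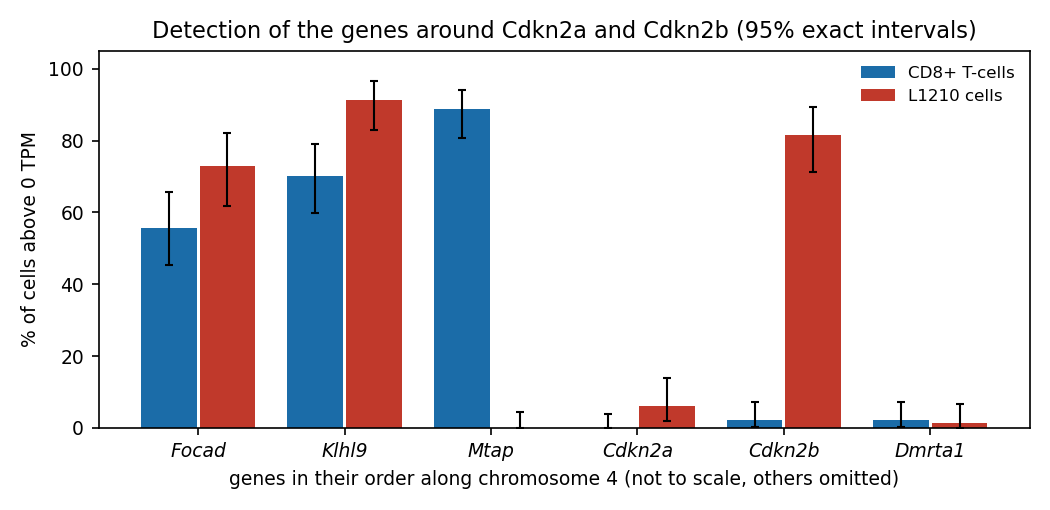
Bars give the percent of cells above 0 TPM for 6 genes in their order along chromosome 4, for 97 CD8+ T-cells (blue) and 81 L1210 cells (red), and lines are exact 95% intervals. Mtap is detected in 88.7% of CD8+ T-cells, against 0% of L1210 cells, and Cdkn2b in 2.06% and 81.5%, while Klhl9 and Focad are detected in both.

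The remaining inhibitors were detected in both types. Cdkn2d was detected in 89 of 97 CD8+ T-cells, from 0 to 605 TPM with a median of 79.8, and in 70 of 81 L1210 cells, from 0 to 296 TPM with a median of 40.4. The lineage means were 116 ± 100 TPM (SD, n = 34) and 61.7 ± 42.7 TPM (SD, n = 26), a log2 ratio of -0.92 that passed 2-fold, at -1.06, when cells instead of lineages were averaged, and at -1.14 in cells 0.5 to 9.5 h after division. Cdkn2c was detected in 32 of 97 CD8+ T-cells, against 44 of 81 L1210 cells, with maxima of 59.5 and 61.7 TPM and a log2 ratio of 0.96. With levels transformed back from ln(TPM + 1) its ratio was 1.54. The ranges of both genes overlapped throughout.

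Cdkn1b was detected in 63 of 97 CD8+ T-cells (64.9%, exact 95% interval 54.6 to 74.4%), from 0 to 40.5 TPM with a median of 3.74, and in 32 of 81 L1210 cells (39.5%, 28.8 to 50.99%), from 0 to 43.2 TPM with a median of 0. It averaged 8.66 ± 7.98 TPM in CD8+ T-cells (SD, n = 34 lineages) and 3.26 ± 4.32 TPM in L1210 cells (SD, n = 26 lineages), 2.66-fold higher in CD8+ T-cells. The L1210 value depends on L1210_8, the highest cell at 43.2 TPM. Without it the log2 ratio moved from -1.41 to -1.84, and with Rn45s left out and each library rescaled it was -0.70, under 2-fold, but -1.91 when L1210_8 was left out as well. Skp2, the ubiquitin ligase subunit that marks p27 for degradation, was detected in 49 of 97 CD8+ T-cells, against 70 of 81 L1210 cells, and averaged 4.36 ± 4.80 and 18.8 ± 11.4 TPM, a log2 ratio of 2.11.

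Within single cells, the INK4 genes made up different shares in each type. Cdkn2d was the highest INK4 gene in 87 of 97 CD8+ T-cells, Cdkn2c in 2 and Cdkn2b in 1, and in 7 all INK4 genes were listed at 0. Among L1210 cells, Cdkn2d was the highest in 47 of 81, Cdkn2b in 27 and Cdkn2c in 3, and in 4 all were listed at 0. As shares of the summed INK4 TPM, Cdkn2d took 94.2% ± 9.34 in CD8+ T-cells (SD, n = 34 lineages), against 54.5% ± 15.7 for Cdkn2d and 35.3% ± 16.995 for Cdkn2b in L1210 cells (SD, n = 25 lineages). Cdkn2b, Cdkn2c and Cdkn2d were above 0 together in 37 of 81 L1210 cells and in 1 of 97 CD8+ T-cells. The CD8+ count could not exceed the 2 cells with Cdkn2b above 0 TPM, so that this contrast largely repeats that of Cdkn2b.

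**Figure D3:**
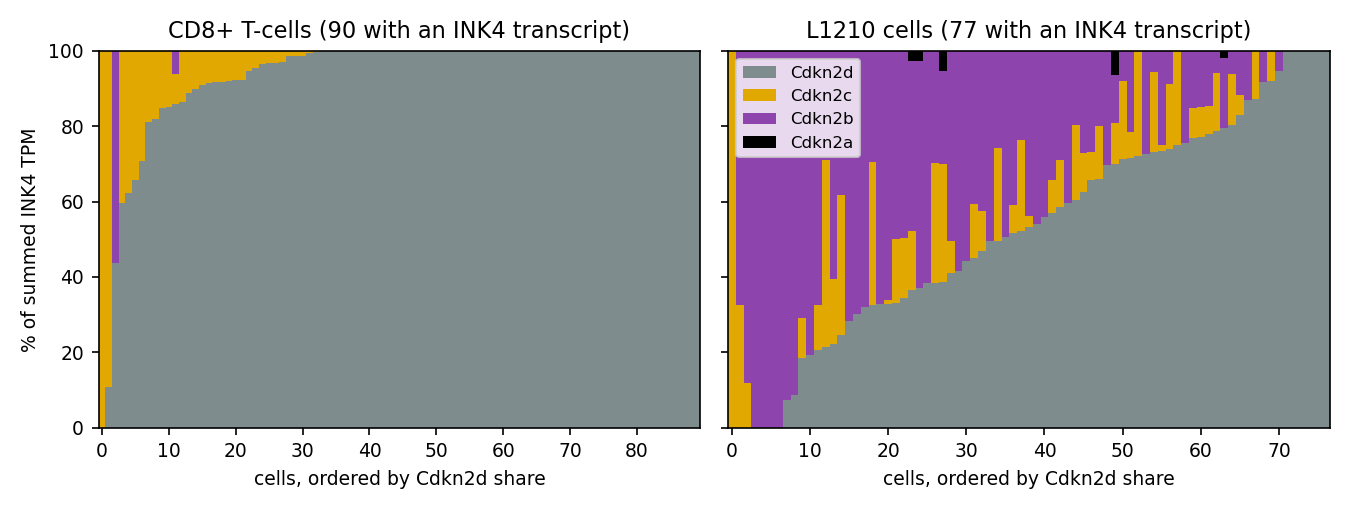
Each thin bar is 1 cell with an INK4 gene above 0 TPM, 90 CD8+ T-cells and 77 L1210 cells ordered by the share of Cdkn2d, and the height is the percent of the summed TPM of Cdkn2a, Cdkn2b, Cdkn2c and Cdkn2d. The median Cdkn2d share is 100% in CD8+ T-cells, against 53.3% in L1210 cells, where Cdkn2b fills most of the rest.

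Genes around the members in the G1 pathway were read from lists. The median log2 ratios given here stand beside 0.39 over all genes. Of the E- and A-type cyclins and Cdk2, 4 of 4 passed the filter (median -0.61) and 1 was counted as 2-fold higher in CD8+ T-cells, Ccne1, the cyclin partner of CDK2 at the start of S phase, at 98.1 ± 72.5 and 47.8 ± 27.7 TPM (SD over lineages), a log2 ratio of -1.04 that was -0.99 in libraries with 4000 or more genes. Cdkn1a (p21), the CIP/KIP inhibitor induced by p53, averaged 54.3 ± 84.3 TPM in CD8+ T-cells and 16.6 ± 24.6 TPM in L1210 cells, a log2 ratio of -1.71, and Cdkn1c was above 0 in 1 and 0 cells. Among 13 pocket protein and E2F genes (median -0.78), 1 was higher in L1210 cells and 3 were higher in CD8+ T-cells. Below 10 TPM in both types were E2f5 (0.879 and 6.36 TPM) and E2f6 (4.70 and 0.149 TPM), named after their values were seen. The others were E2f2, an activating E2F, at 23.5 ± 23.4 and 4.38 ± 4.28 TPM, a log2 ratio of -2.42, and Tfdp1, the dimer partner of E2F proteins, at 168 ± 73.7 and 63.6 ± 27.5 TPM, a log2 ratio of -1.40. Of 9 genes of CDK activation and turnover (median 0.54) Skp2 was the only one past 2-fold. Bmi1, a Polycomb protein known to repress the Cdkn2a locus, was detected in 40 of 97 CD8+ T-cells, against 73 of 81 L1210 cells, and averaged 2.98 ± 4.25 and 13.1 ± 6.42 TPM, a log2 ratio of 2.13, and it was the only gene past 2-fold of the 3 ARF and Polycomb genes (median 0.77).

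Time since division was recorded for 94 CD8+ T-cells in 31 lineages, from 0.5 to 9.48 h with a median of 4.41 h, and for all 81 L1210 cells in 26 lineages, from 0.354 to 12.8 h with a median of 4.45 h. Cells of a lineage come from common divisions and mostly had similar times, with a median SD within lineages of 0.126 h in CD8+ T-cells and 0.0946 h in L1210 cells. The slope of ln(TPM + 1) on hours was therefore fitted over lineage means with limma, with Benjamini-Hochberg adjustment across every gene tested. In some L1210 lineages cousins lay farther apart, such as at 2.05 and 4.98 h, so that a lineage mean need not match any of its cells. These p-values cover the spread between lineages and not that between mice. In CD8+ T-cells 9 of 9997 genes (0.09%) passed an adjusted p of 0.05, and 1294 had an unadjusted p under 0.05. None of the 7 members tested passed, and Ccnd1, Cdkn2a and Cdkn2b were below the filter. In L1210 cells 0 of 10536 genes passed (0%), with 588 under 0.05 unadjusted, so that 0 of the 9 members tested passed.

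Cdkn2d was the member closest to a change with time in CD8+ T-cells. Its lineage means were 47.7 ± 39.5 TPM from 0 to 3 h (SD, n = 9 lineages), 139.9 ± 108 TPM from 3 to 6 h (SD, n = 13) and 149 ± 105.5 TPM from 6 to 9 h (SD, n = 8), and 90.7 TPM in the 1 later lineage. The early lineages ran from 6.35 to 124 TPM and overlapped the later ones, which ran from 20.9 to 389.6 TPM between 3 and 6 h. The slope was 0.224 ± 0.0766 per hour (SE, n = 31 lineages) with an unadjusted p of 0.0054 and an adjusted p of 0.211 (limma), and the adjusted p ranged from 0.125 to 0.345 over the settings tried. L1210 cells gave 56.8 ± 35.03, 37.95 ± 10.1 and 70.2 ± 54.7 TPM in the same windows (SD, n = 8, 7 and 4 lineages) and 86.2 ± 56.1 TPM from 9 to 13 h (SD, n = 7), with a slope of 0.0646 ± 0.0482 per hour and an adjusted p of 0.853 (limma). The slopes of both types differed by -0.16 ± 0.0931 per hour (SE, adjusted p = 0.492, limma, n = 57 lineages), which does not pass. Over all genes 1 of 9160 (0.0109%) passed this test of the difference, and 0 of the 7 members tested did.

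Cdkn1b had the smallest unadjusted p among the members in L1210 cells. Its lineage means were 1.71 ± 1.70 TPM from 0 to 3 h (SD, n = 8 lineages), 1.89 ± 1.18 TPM from 3 to 6 h (n = 7), 2.30 ± 2.15 TPM from 6 to 9 h (n = 4) and 6.94 ± 6.995 TPM from 9 to 13 h (n = 7). The last window holds the lineage of L1210_8, at 21.6 TPM. The slope was 0.077 ± 0.0299 per hour (SE, n = 26 lineages), with an unadjusted p of 0.0144 and an adjusted p of 0.843 (limma), and with libraries of 4000 or more genes it was 0.0594 with an unadjusted p of 0.071 (limma). That setting leaves out L1210_8 together with other sparse libraries, and no fit on hours left out L1210_8 alone. In CD8+ T-cells the slope of Cdkn1b was -0.05 ± 0.0752 per hour (SE, adjusted p = 0.819, limma, n = 31 lineages).

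The D cyclins and their kinases gave slopes within about 2 SE of 0. For Ccnd3 they were -0.08 ± 0.0459 per hour in CD8+ T-cells (SE, adjusted p = 0.477, limma, n = 31 lineages) and -0.04 ± 0.0254 in L1210 cells (adjusted p = 0.853, n = 26 lineages). Ccnd3 lineage means were 752 ± 265, 775 ± 283 and 769 ± 322 TPM in the first 3 windows in CD8+ T-cells, with 302.2 TPM in the 1 later lineage, and 486 ± 110, 425 ± 106.4, 372 ± 77.9 and 355 ± 132 TPM over the 4 windows in L1210 cells (SD). Slopes of Cdk6 were -0.11 ± 0.0607 and -0.02 ± 0.0374 per hour, and those of Cdk4 and Ccnd2 lay between -0.01 and 0.0338 per hour in both types. Cdkn2b in L1210 cells had a slope of -0.06 ± 0.0569 per hour (SE, adjusted p = 0.867, limma, n = 26 lineages), with 46.2 ± 38.7 TPM in the first window and 45.1 ± 69.5 TPM in the last.

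Ccne2, a cyclin E gene and a known E2F target, was the gene of the pathway lists that passed. Its lineage means in CD8+ T-cells fell with time, from 30.8 ± 9.99 TPM in the first 3 h (SD, n = 9 lineages) to 24.4 ± 18.9 TPM from 3 to 6 h (n = 13) and 9.18 ± 8.84 TPM from 6 to 9 h (n = 8), and the 1 lineage after 9 h was at 0. The slope was -0.36 ± 0.0711 per hour (SE, adjusted p = 0.0265, limma, n = 31 lineages), with an adjusted p between 0.00785 and 0.0405 over the settings tried. In L1210 cells Ccne2 gave 18.1 ± 15.7, 25.6 ± 11.2, 15.8 ± 8.50 and 4.41 ± 5.04 TPM over the 4 windows and a slope of -0.12 ± 0.0544 per hour (adjusted p = 0.853, limma), and the difference of the slopes did not pass (adjusted p = 0.302, limma). None of the other 3 genes of the E- and A-type cyclin list, 1 CIP/KIP gene, 13 pocket protein and E2F genes, 9 genes of CDK activation and turnover and 3 ARF and Polycomb genes tested in CD8+ T-cells passed.

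**Figure D4:**
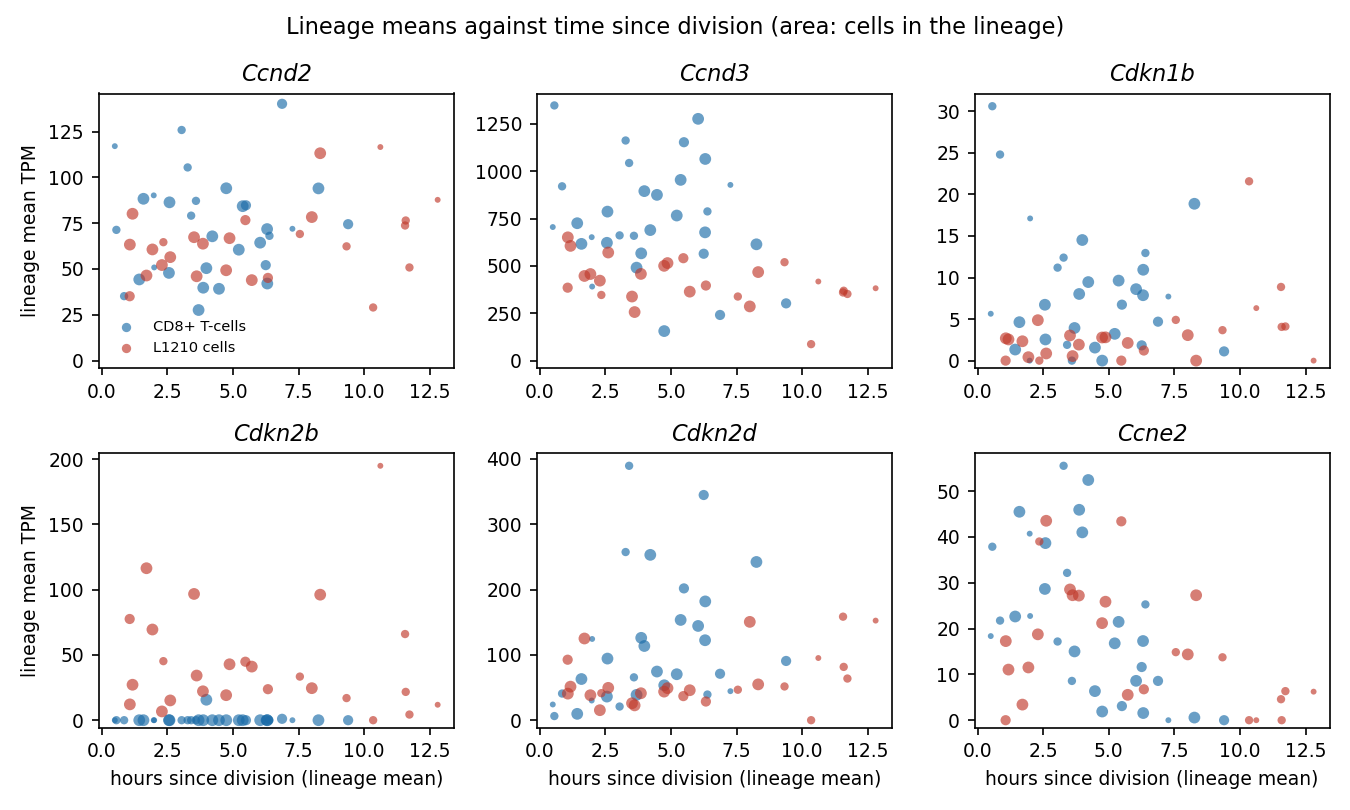
Each point is the mean TPM of 1 lineage against its mean time since division in hours, for CD8+ T-cells (31 lineages, blue) and L1210 cells (26 lineages, red), with the area of a point in proportion to its number of cells. In CD8+ T-cells Ccne2 declines with time and passed the test, Cdkn2d lies lowest in the first 3 h without passing it, and Ccnd2 and Ccnd3 show no slope that passed.

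Lineages were compared by a moderated F-test on the ln(TPM + 1) of single cells (limma), over 27 lineages and 90 CD8+ T-cells and over 24 lineages and 79 L1210 cells, with cousins and sisters of a lineage counted as separate cells. No lineage is tied to a mouse or a culture, so that the test cannot tell a difference between lineages from one between mice or cultures. In CD8+ T-cells 1289 of 9997 genes (12.9%) passed an adjusted p of 0.05, and 2 of the 7 members did, Ccnd3 (F = 2.17, adjusted p = 0.0404) and Cdkn2d (F = 2.31, adjusted p = 0.0271). In L1210 cells 1417 of 10536 genes (13.4%) passed and 0 of the 9 members did, with Cdkn2b at F = 1.81 and an adjusted p of 0.12 (limma).

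Values are given for the CD8+ T-cell lineages of 4 cells with the lowest and highest median Ccnd3, out of 16 such lineages. The lowest held 0 (CD8_86), 124, 129 and 369.9 TPM and the highest 774, 1145, 1582 and 1605 TPM. Their cells did not overlap, but extremes picked by the same values tend to separate, so this is an illustration only. For Cdkn2d the lowest such lineage, at a mean of 1.43 h since division, held 0, 0, 11.03 and 27.9 TPM. The highest, at a mean of 8.26 h, held 114, 139, 257 and 459 TPM. The SD of lineage means on the ln(TPM + 1) scale was 0.688 for Ccnd3 and 1.21 for Cdkn2d, and the median SD within a lineage 0.343 and 0.887 (27 lineages). With hours as a covariate neither gene passed, at adjusted p-values of 0.071 for Ccnd3 and 0.134 for Cdkn2d (limma). Hours varied little within a CD8+ lineage, with a median SD of 0.126 h against an SD of 2.29 h between lineage means. This fit can therefore hardly separate lineage from hours, and the lost calls do not show that time accounts for the differences.

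In L1210 cells the result depended on sparse libraries. Without L1210_15 alone, the library at 0 for both genes, Ccnd3 passed (F = 3.02, adjusted p = 0.00577, limma) and so did Cdk4 (F = 2.22, adjusted p = 0.0498), whereas with it their adjusted p-values were 0.226 and 0.34. In libraries with 4000 or more genes Cdk4 passed (adjusted p = 0.0104) and Ccnd3 did not (adjusted p = 0.376, limma). Ccnd3 in L1210 cells had lineages of 4 from 178 to 301 TPM and from 453 to 752 TPM at the extremes, picked by their medians. Cdkn2b passed neither with nor without L1210_15 (adjusted p = 0.139 without it, limma). Its extreme lineages of 4, picked in the same way, held 0, 0, 10.2 and 16.7 TPM and 28.4, 126, 128 and 183 TPM. Its SD between lineage means was 1.15 and its median SD within a lineage 1.30 on the ln(TPM + 1) scale. Of 38 sister pairs of L1210 cells, 26 had Cdkn2b above 0 in both sisters, 10 in 1 of them and 2 in neither. Cdkn1b was above 0 in both sisters of 4 pairs, in 1 sister of 23 and in neither of 11, and among 43 CD8+ pairs in both of 19, in 1 of 17 and in neither of 7. Such counts depend on the share of cells above 0 TPM and were not compared with pairs of unrelated cells, so they do not show likeness of sisters.

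**Figure D5:**
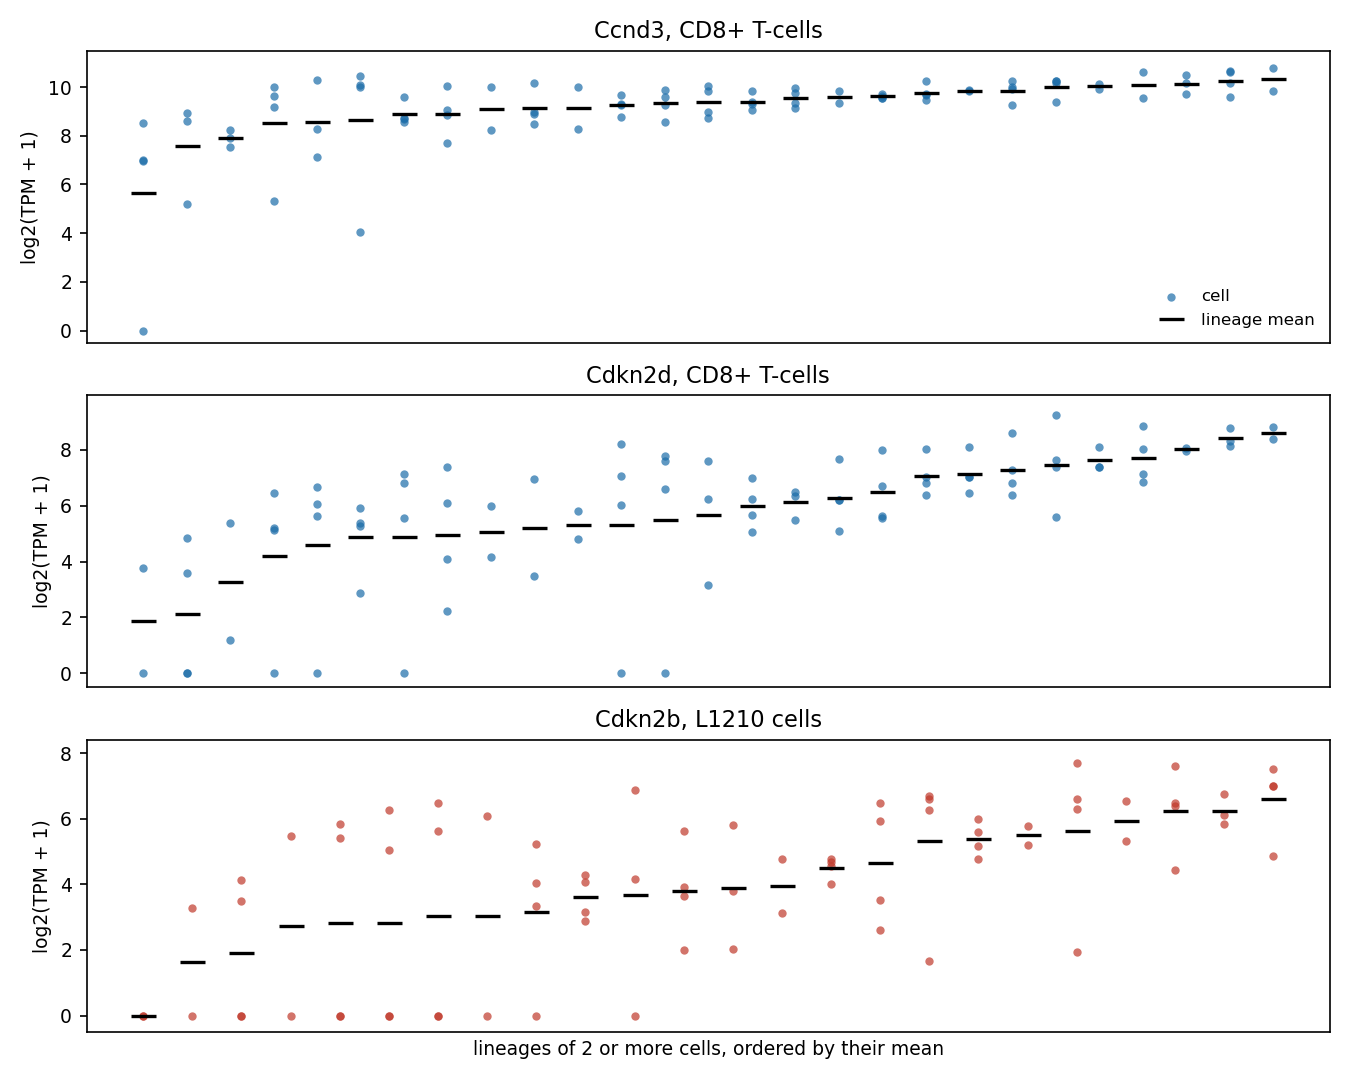
Points are cells and black marks lineage means of log2(TPM + 1), for Ccnd3 and Cdkn2d in the 27 CD8+ lineages and Cdkn2b in the 24 L1210 lineages of 2 or more cells, each ordered by the lineage mean. For Ccnd3, a lineage of 4 with cells between 0 and 369.9 TPM lies toward the low end and another with cells between 774 and 1605 TPM toward the high end.

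Among all genes tested, 12.9% differed between lineages for CD8+ T-cells, against 13.4% for L1210 cells. No pathway list was tested for an excess over these shares. Other G1 genes passed the test of lineages too. Cdkn1a did so in both types with the smallest p-values of the lists, at an F of 7.06 in CD8+ T-cells (adjusted p = 4.51e-09) and 4.71 in L1210 cells (adjusted p = 6e-05, limma), and over the settings tried its adjusted p stayed between 2.55e-09 and 5.75e-07 and between 3.73e-06 and 0.000273. In CD8+ T-cells 1 of 4 E- and A-type cyclin genes passed (Ccne2), as did 3 of 13 pocket protein and E2F genes (E2f2, E2f4 and Tfdp1), 1 of 9 genes of CDK activation and turnover (Wee1, the kinase that inhibits CDK1 and CDK2) and 1 of 3 ARF and Polycomb genes (Bmi1). In L1210 cells Ccne2 and Ccna2, E2f2 and E2f8, and Cdk7, the kinase that activates other CDKs, passed, out of 4, 12 and 9 genes tested in their lists, and 0 of 3 ARF and Polycomb genes. The call of Ccne2 did not hold in every setting. Its adjusted p ran from 0.00438 to 0.229 in CD8+ T-cells and from 0.0011 to 0.0963 in L1210 cells (limma). Ccne2 also fell with hours in CD8+ T-cells, so that its lineage call there can hardly be separated from time. Apart from Cdkn1a and Ccne2, the calls named here are given for the main setting only. With the number of genes above 0 TPM per library as a covariate, 510 genes in all passed in L1210 cells in place of 1417. Whether Ccna2, E2f2, E2f8 and Cdk7 still passed there is not given.

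Correlations were computed over points that share library quality. The highest Spearman correlation between 2 members was 0.42 over 97 CD8+ T-cells, for Ccnd3 and Cdk6, and 0.31 over 81 L1210 cells, for Ccnd3 and Cdkn2d. Over lineage means it was 0.59 in CD8+ T-cells, for Cdk6 and Cdkn2c (n = 34 lineages), and 0.62 in L1210 cells, for Ccnd3 and Cdk6 (n = 26 lineages). Ccnd3 had a correlation of 0.30 with the number of genes above 0 TPM in CD8+ T-cells, against 0.35 in L1210 cells. The gene most like a member was read over lineage means for members above 0 TPM in over 50% of that type, which left out Ccnd1 and Cdkn2a in both types, Cdkn2b and Cdkn2c in CD8+ T-cells and Cdkn1b in L1210 cells. In CD8+ T-cells (n = 34 lineages) these were Gadd45g for Ccnd2 (rho = 0.80), Armc7 for Ccnd3 (0.77), Pold2 for Cdk4 (0.70), Snrnp200 for Cdk6 (0.78), Ncoa2 for Cdkn1b (0.71) and Pagr1a for Cdkn2d (0.59). In L1210 cells (n = 26 lineages) they were Arpc1b for Ccnd2 (rho = 0.73), Mina for Ccnd3 (0.80), Mdc1 for Cdk4 (0.86), Lrrc33 for Cdk6 (0.81), Xpc for Cdkn2b (0.83), Efcab7 for Cdkn2c (0.87) and Cant1 for Cdkn2d (0.73). The best partner of any gene is high by this measure, with a median rho of 0.74 over 6157 genes in CD8+ T-cells and 0.79 over 8242 genes in L1210 cells.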

How the data were processed

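Single cells were released from a microfluidic trap array and made into Smart-Seq2 libraries. The authors sequenced 30-base paired reads and estimated expression with RSEM 1.2.3 for UCSC genes of mm10, deposited as TPM per gene, which add up to 1 total in all libraries and are not log-transformed. TPM keep no read number, so the depth given is the number of genes above 0 TPM. Spreadsheet dates had replaced 27 gene names, and 2 names were duplicated. No member was among them.

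Doublets and libraries under 1000 genes were left out. Lineages were built from the sister and cousin labels. Values were taken as ln(TPM + 1), for genes above 1 in more than 10% of cells of a type. Slopes on hours were fitted to lineage means, and lineages compared by moderated F-tests, with limma 3.58.1 (R 4.3.3) and Benjamini-Hochberg adjustment over all genes tested, at 0.05. The code was tested on simulated data. CD8+ T-cells and L1210 cells were compared without a test. Shares of cells have exact 95% intervals. Other steps used scipy 1.17.1, pandas 2.3.3, numpy 2.4.6 and matplotlib 3.10.9 in Python 3.11.15.

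The members, pathway lists and tests were chosen with earlier results of these data known. Named genes are all members, the listed pathway genes that passed a test or were 2-fold or more apart with at least 10 TPM in 1 type, genes within 1 Mb of Cdkn2a and Cdkn2b and the farther Elavl2, and the genes most like a member, of which the first of 3 is given. Most neighbors are given by counts only. The alternatives tried are listed in the closing section.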

Additional observations from a re-analysis of the deposited data

How the results depend on the processing

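Alternatives changed the pseudocount (0.1 or 10 TPM), gene filter, minimum of genes per library (2000 or 4000), scaling without Rn45s, covariates, weights and units. Others added hours squared to the fits on hours within each cell type, or left out L1210_15. Leaving out CD8_54, or L1210_8 with and without the Rn45s scaling, was chosen after seeing the data and was run for the comparison of cell types only. No paired analysis was possible because the numbers shared between CD8+ T-cell and L1210 titles only name cells.

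No member passed the test on hours or of the slope difference under any of the alternatives run for these tests. The 9 genes passing on hours in CD8+ T-cells became 5 with ln(TPM + 0.1), 3 with no gene filter, 25 with 4000 or more genes per library, 17 with genes per library as a covariate, 19 with weighted lineage means and 23 over single cells. The 0 in L1210 cells became 1 with genes per library as a covariate. The 1 gene of differing slope became 2 with ln(TPM + 10) or the covariate, 3 with 4000 or more genes or over single cells, and 0 without Rn45s. The 1417 genes differing between L1210 lineages became 2186 with no gene filter, 674 with 4000 or more genes, 510 with the covariate and 515 in lineages of 4. The 3302 and 1585 genes 2-fold apart became 6749 and 4297 with no gene filter, and the 3302 became 5313 from back-transformed means.

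Slopes that changed sign were all near 0 and passed in neither direction. Ccnd2 in CD8+ T-cells moved from -0.01 to 0.00873 with 4000 or more genes, 0.0125 with the covariate, 0.00429 with weights and 0.000334 over single cells. In L1210 cells with 4000 or more genes Cdk4 moved to 0.0141 and Cdk6 to 0.000327. The slope difference of Cdkn2c moved from 0.00881 to -0.000235 with ln(TPM + 10), -0.00509 with 4000 or more genes, -0.0124 with the covariate, -0.0509 with weights and -0.0443 over single cells, and the slope of Cdkn1a in CD8+ T-cells to 0.014 with the covariate. The lineage calls of Ccnd3 and Cdkn2d in CD8+ T-cells were also lost with ln(TPM + 0.1), at adjusted p-values of 0.0609 and 0.097 (limma), and with no gene filter, at 0.102 and 0.0524, and that of Cdkn2d in lineages of 4 cells, at 0.124. Cdk4 gained that call in CD8+ libraries with 4000 or more genes (0.00266) and Cdk6 with the covariate (0.0499). The causes were not tested. Because TPM keep no read numbers per gene, a gene listed at 0 in a cell cannot be told from one below detection.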
